A study of Mus musculus with 14 samples.

Results

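Among 75548 cells of lymphoma nodules that passed the limit on mitochondrial RNA, 323 cells (0.428%) carried epithelial transcripts and none of the transcripts used to exclude other lineages. A cell was counted as epithelial when it held at least 1 UMI (unique molecular identifier, 1 captured RNA molecule) of at least 2 of 6 epithelial genes (Epcam, Krt8, Krt18, Krt19, Cldn4 and Ager), no UMI of the leukocyte gene Ptprc, none of the endothelial genes Pecam1 and Cdh5 and none of the fibroblast collagen genes Col1a1 and Col3a1. Cells with more than 10% mitochondrial UMIs were left out first, which removed the difference between 77442 deposited and 75548 analysed cells. The cells were thus chosen by the counts of these genes, and the levels of these genes below are a description.

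Epithelial cells line organs and hold together through keratin filaments, claudins and cadherins, and each organ has its own kinds. In the lung, flat alveolar type 1 (AT1) cells carry gas exchange, cuboidal type 2 (AT2) cells make surfactant and serve as AT1 progenitors, and secretory club cells and ciliated cells line the airways. In the liver, hepatocytes secrete plasma proteins and cholangiocytes line the bile ducts, and duct-like cells that share genes of both arise after injury.

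The study profiled nodules from 7 mice in which floxed Eif3e, which encodes 1 of the subunits of eIF3 (a translation initiation factor), was deleted by Cre expressed from the Cγ1 (Ighg1) locus, which is active in B cells that have been stimulated to switch class. All 7 mice were on the C57BL/6J background, and some carried a Rosa26-YFP reporter; no nodule from a Cre-negative mouse was among them. Each mouse gave 1 RNA library and 1 V(D)J library, of B cell receptors (BCR) in 5 mice and of T cell receptors (TCR) in 2 mice. The nodules came from the liver of mouse 27 (12 months, BCR) and of mouse 30 (14 months, TCR), the lung of mouse 29 (12 months, BCR), the spleen of mouse 31 (13 months, BCR) and of mouse 32 (12 months, TCR), the thymus of mouse 33 (16 months, BCR) and the lung and thymus together of mouse 34 (9 months, BCR). The nodule of mouse 27 was a secondary tumor in a Rag2-/- recipient, and the study's mouse list gives mouse 34 as a bone marrow reconstitution mouse, so that their epithelium may be the recipient's. The Cre line was not one made for epithelial cells.

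Epithelial cells were unevenly spread over the nodules. Mouse 29 held 247 of 14078 cells (1.75%, exact 95% binomial interval 1.54 to 1.99), which was 76.5% of all epithelial cells found. Mouse 30 had 48 such cells among 10485 (0.458%, 0.338 to 0.607), mouse 27 had 19 among 9396 (0.202%, 0.122 to 0.316) and mouse 34 had 7 among 6869 (0.102%, 0.0410 to 0.210). The thymus nodule of mouse 33 gave 1 of 9984 cells (0.0100%) and the spleen nodule of mouse 32 gave 1 of 13369 (0.00748%), while the spleen nodule of mouse 31 gave 0 of 11367 cells, for which the exact interval ends at 0.0324% and a floor of 3 cells allows up to 0.0264%. These intervals, and all others given here, cover counting error only.

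**Figure D1:**
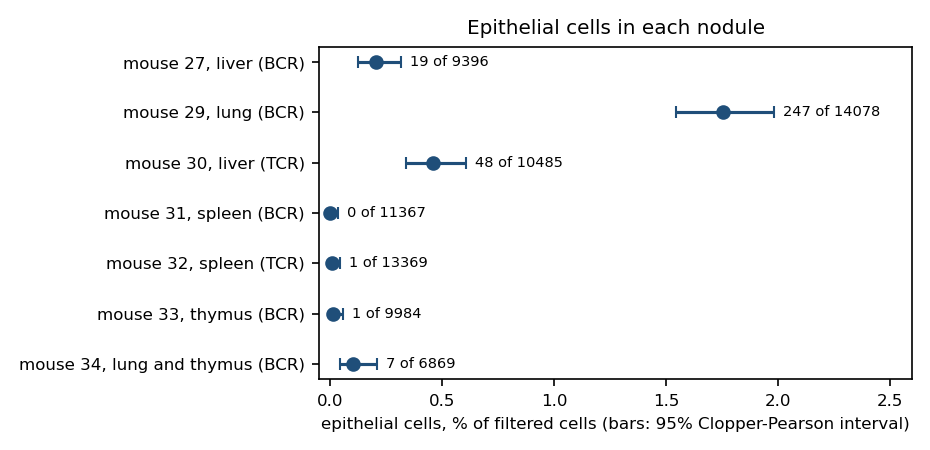
Epithelial cells as a percent of the analysed cells of each nodule, 1 point per mouse with its exact 95% binomial interval. The lung nodule of mouse 29 stands at 1.75% and the next, the liver nodule of mouse 30, at 0.458%.

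The share of epithelial cells was 0.928% ± 1.17 (SD, n = 2 mice) in the nodules that contained lung and 0.136% ± 0.199 (n = 5) in the others. The difference of 0.793 percentage points gave p = 0.286 in a two-sided exact permutation test over mice. The smallest p that 2 against 5 mice can give is 0.0952, so the test cannot show whether the difference goes beyond the spread between mice. It rested on mouse 29, without which the difference turned to -0.0336. BCR-profiled mice stood at 0.414% ± 0.754 (n = 5) and TCR-profiled mice at 0.233% ± 0.318 (n = 2), a difference of 0.181 points (two-sided exact permutation p = 0.952), which turned to -0.154 without mouse 29 and to -0.0441 without mouse 32. Each mouse gave 1 RNA library, so site, age, receptor library and mouse cannot be told apart.

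The libraries held 19264039 (mouse 30) to 123456962 UMIs (mouse 32), and the median cell held 1364 to 5316 UMIs. The epithelial cells were deeper than the rest of their libraries, at median UMIs of 3762, 4571, 5076.5 and 12296 for mice 27, 29, 30 and 34. None of the 323 had a V(D)J call, against 2.59% (mouse 29) to 40.4% (mouse 32) of the analysed cells of a nodule, and 33 held a UMI of Cd79a, Cd79b, Cd3e, Cd3d or Cd3g. Of the 323 barcodes, 16 also occurred in another library and no barcode was shared by 2 epithelial cells; over all libraries 3307 of 74042 barcodes occurred in more than 1. No doublet caller was run on these cells, and the exclusion genes were the only guard against doublets.

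The rule left out many cells that carried epithelial genes together with Ptprc. In mouse 29, 391 cells held at least 2 of the 6 genes and 111 of them also held Ptprc, 45 with a single UMI of it. Those 111 cells had a median of 6210 UMIs, and their Sftpc, the surfactant protein C gene of AT2 cells, stood at 5122 CPM (the UMIs of a gene summed over a set of cells, per 1000000 UMIs of that set). In mouse 31 all 12 cells with 2 of the genes held Ptprc, and in mice 32 and 33 so did 24 of 26 and 31 of 33. Across the threshold in mouse 29, 152 cells with exactly 1 of the 6 genes (median 1704 UMIs) had Epcam at 403 CPM and Sftpc at 4536 CPM, 75 cells with exactly 2 (2877 UMIs) had 664 and 21509 CPM, and 172 cells with 3 or more (5231 UMIs) had 1044 and 13077 CPM. In mouse 30 the 85 cells with exactly 1 gene had Spp1, a bile duct gene, at 299.7 CPM and the T cell gene Cd3e at 578 CPM, against Spp1 at 8929 CPM in the 9 cells with exactly 2 and 13525 CPM in the 39 with more. The shallow cells just outside the rule thus still carried Sftpc in the lung nodule, while those of the liver nodule carried T cell RNA.

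The given epithelial markers were present in the 4 nodules that held more than 1 cell, except for Sftpb, which marks lung. Epcam (ENSMUSG00000045394), the epithelial adhesion molecule, stood at 1831, 965, 1557 and 1070 CPM in mice 27, 29, 30 and 34, against 10.3 to 102 CPM in the cells of the same nodules that held a Ptprc UMI. Krt8 stood at 1880, 258, 1311 and 904 CPM and its filament partner Krt18 at 4993, 792, 1707 and 452 CPM in mice 27, 29, 30 and 34. Krt19, a keratin of ducts and airways, stood at 110, 123, 826 and 1130 CPM. Sftpb, surfactant protein B, stood at 2220 CPM in mouse 29, where 75.3% of the epithelial cells held a UMI against 1.82% of Ptprc cells (median 4571 against 2040 UMIs a cell), and at 0 in mice 27, 30 and 34. Sftpb was thus found among the chosen cells of mouse 29 only, whereas the 12 cells of mouse 34 left out for a Ptprc UMI had Sftpb at 491 CPM and Sftpc at 4346 CPM.

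Clustering of the 323 cells on their variable genes gave 11 clusters, which parted largely by mouse. Mouse 29 supplied 141 cells of 3 AT2-like clusters, 57.1% of its epithelial cells (exact 95% interval 50.7 to 63.3), and 34 AT1-like cells, 13.8% (9.72 to 18.7). In mouse 30, 47 of 48 cells were cholangiocyte-like (97.9%, 88.9 to 99.9), and in mouse 27, 12 of 19 were hepatocyte-like (63.2%, 38.4 to 83.7). These names depended on the clustering: at a resolution of 0.5 the shares were 47.9% and 0%, and the AT2-like share was 42.1% at 0.5 and 2. A mesothelial-like cluster held 11 cells, and 3 clusters stayed unnamed because markers of more than 1 class led them. With 1 library per mouse, a cluster drawn from 1 mouse cannot be told apart from that library, and the genes that define a cluster were used to make it.

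**Figure D2:**
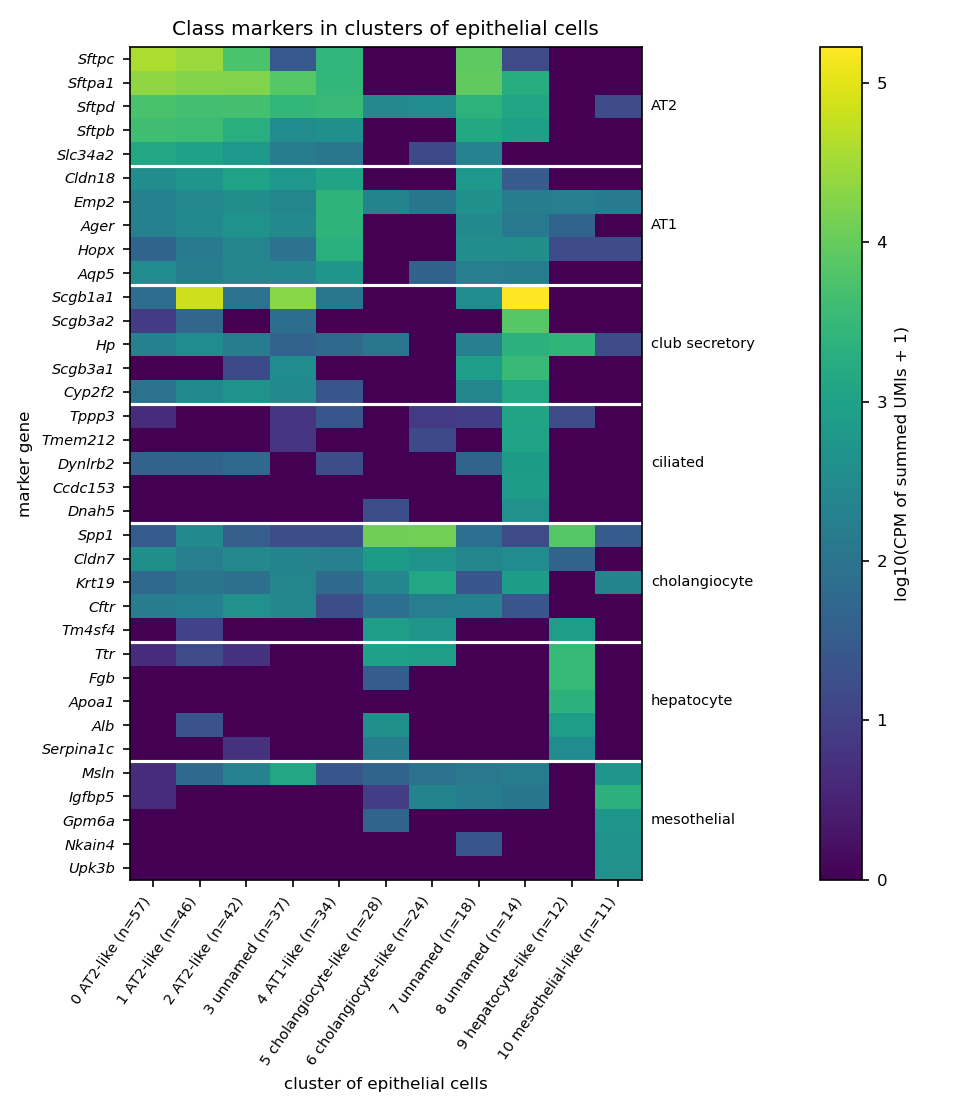
Levels of class marker genes (rows) in each cluster of the epithelial cells (columns, with the number of cells), as log10 of the CPM of summed UMIs plus 1 in colour. Sftpc reaches 37291 CPM in an AT2-like cluster, Ager 2538 CPM in the AT1-like cluster and Spp1 13137 CPM in a cholangiocyte-like cluster.

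Summed over their cells, the AT2-like clusters carried the whole surfactant set. The 3 clusters (0, 1 and 2 in the plots, taken in that order here) held 57, 46 and 42 cells, all but 4 from mouse 29, and each had all 11 AT2 markers at 1.5 or more times the median cluster. Those 4 cells, of mice 27, 30 and 34, held no Sftpc or Sftpb, which goes against the AT2-like name for them. Spp1 stood at 2861 to 30192 CPM in those of mice 27 and 30, and the cell of mouse 34 held 3 Cd79a UMIs. Sftpc (ENSMUSG00000022097) stood at 37291, 27941 and 5614 CPM in the mouse 29 cells of the 3 clusters, and the collectin Sftpa1 at 22254, 19098 and 17047 CPM. Within the first cluster the count of Sftpc ran from 0 to 778 UMIs a cell with a median of 127, whereas in the third its median was 0 and 14 of 41 cells held any. The phospholipid transporter Abca3 stood at 348, 417 and 209 CPM, the lamellar body protein Lamp3 at 531, 513 and 432 CPM and the lipid desaturase Scd1 at 1548, 1775 and 1291 CPM. The lung chemokine Cxcl15 stood at 1497, 1043 and 246 CPM and the acute-phase protein Lcn2 at 3066, 1871 and 427 CPM, both lowest in the third cluster. The histone deacetylase Hdac9 ran the other way, at 589, 781 and 2127 CPM, and so did the tight junction gene Cldn18, at 359, 561 and 1087 CPM. Cldn18 is also an AT1 marker, and 7 of the 11 AT1 markers passed the same limit in the third cluster and 3 in the second. At a clustering resolution of 2, a cluster of 32 cells with Ccl9, Hs3st3a1 and Hdac9 among its leading genes, as in the third cluster, stayed unnamed. The AT2-like name is thus less firm for the third cluster. Free surfactant RNA was present in the library: 6.08% of Ptprc cells held Sftpc (median 2040 UMIs), at 141 CPM, against 49.0% of the epithelial cells (median 4571 UMIs), at 14832 CPM.

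The 34 AT1-like cells (cluster 4), all from mouse 29, carried further AT1 genes beside Ager, the receptor for advanced glycation end products. Ager, which flat alveolar cells carry in quantity, was a gene of the rule and was held by 33 of the 34. It stood at 2538 CPM in them, against 201 CPM in the largest AT2-like cluster. Since the rule used Ager to choose cells, nothing is read from its level. The AT1 transcriptional cofactor Hopx stood at 2027 against 46.7 CPM and the scaffold protein Akap5 at 830 against 10.8 CPM. The angiogenic ligand Vegfa stood at 519 against 212 CPM and the water channel Aqp5 at 591 against 327 CPM. Of the 34 cells 9 also held Sftpc, at 2793 CPM, with up to 157 UMIs in 1 cell. These cells were shallower than the other clusters of mouse 29, with a median of 3206.5 UMIs. Among them 1 cell held 322 UMIs of the hemoglobin gene Hbb-bs, 99.7% of those in the cluster.

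A cluster of 37 cells (cluster 3), 36 of them from mouse 29, stayed unnamed because markers of several lung classes tied. It carried Ccl20, a ligand of CCR6 that attracts B cells and memory T cells, at 4071 CPM (exact Poisson 95% interval 3784 to 4374) in the mouse 29 cells, where 28 of 36 held it. The lowest cell held 0, the median cell 5.5 and the highest 140 UMIs. Elsewhere in mouse 29 Ccl20 stood at 32.3, 58.8 and 455 CPM in the 3 AT2-like clusters and at 0 in the AT1-like cells. The same 36 cells had the chemokine Ccl9 at 1277 CPM, the transcription factor Spib at 224 CPM, the C-type lectin Clec12a at 256 CPM, the peptidoglycan-binding protein Pglyrp1 at 3891 CPM, Tnfaip2 at 377 CPM and the immunoglobulin transporter Pigr at 1244 CPM. Several of these, Ccl20, Ccl9, Spib, Pglyrp1 and Tnfaip2, are known from the microfold cells that overlie mucosal lymphoid tissue, but Gp2, the receptor that marks those cells, was at 0 here. Tnfaip2 and Gp2 were picked by hand, and other genes looked up with them are not given, so no name is drawn. At a clustering resolution of 2, a cluster of 28 cells led by Scgb1a1, Ccl9 and Ccl20, with Spib and Pglyrp1, was named club secretory-like. Sftpc stood at 27.3 CPM, under its 141 CPM in the Ptprc cells of the library, and Cxcl15 at 0, while Sftpa1 remained at 7673 CPM and Lyz2, the lysozyme of myeloid and AT2 cells, at 11875 CPM. Hdac9 was as high as in the third AT2-like cluster (2281 and 2127 CPM), and Msln stood at 1277 against 209 CPM in that cluster.

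Airway cells were few among the chosen cells but carried very high counts of single genes. Scgb1a1 (ENSMUSG00000024653), the secretoglobin of club cells, stood at 31528 CPM in the epithelial cells of mouse 29, and 13 of 247 cells with at least 100 UMIs each held 99.7% of its 38775 UMIs. Without those 13 cells the level was 118 CPM, and the highest of the other cells held 20 UMIs against 11757 in the highest of the 13. Scgb1a1 was also found outside the chosen cells: the Ptprc cells of mouse 29 held 34505 UMIs of it, at 1008 CPM and in 9.12% of cells. The 13 cells together held 1 UMI of Sftpc. Clustering put 7 of them in an unnamed cluster of 14 cells, 3 among the AT2-like cells and 3 in the cluster with high Ccl20, so Scgb1a1 among the leading genes of those clusters came from these few cells.

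The unnamed airway cluster (cluster 8) joined 9 cells of mouse 29 with 5 of mouse 34, and both sets had airway genes of different kinds. In the 9 cells of mouse 29 Scgb1a1 stood at 301304 CPM, its relative Scgb3a2 at 12944 CPM and the club cell monooxygenase Cyp2f2 at 1869 CPM. The 5 cells of mouse 34 had Scgb1a1 at 225 CPM and Scgb3a2 at 0, and instead Foxj1, the master transcription factor of motile cilia, at 415 CPM, with 2 to 11 UMIs in each cell. Their ciliary genes Tppp3, Tmem212 and Ccdc153 stood at 2319, 1938 and 1315 CPM, against 180, 415 and 277 CPM in the 9 cells of mouse 29, where Foxj1 was held by 1 cell. The antimicrobial lectin Reg3g stood at 9569 CPM but was held by 2 of the 5 cells, while the mucosal chemokine Cxcl17 (2163 CPM) and the protease inhibitor Wfdc2 (9344 CPM) were held by all 5. Another cell among the 7 of mouse 34 held all 53 Ccl20 UMIs of that mouse's epithelial cells. The cell of this cluster with 1488 Hbb-bs UMIs among its 4912 UMIs held all the Hbb-bs UMIs of mouse 34's epithelial cells beside 2 of Foxj1 and 7 of Krt8, so hemoglobin entered those 7 cells through 1 barcode.

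**Figure D3:**
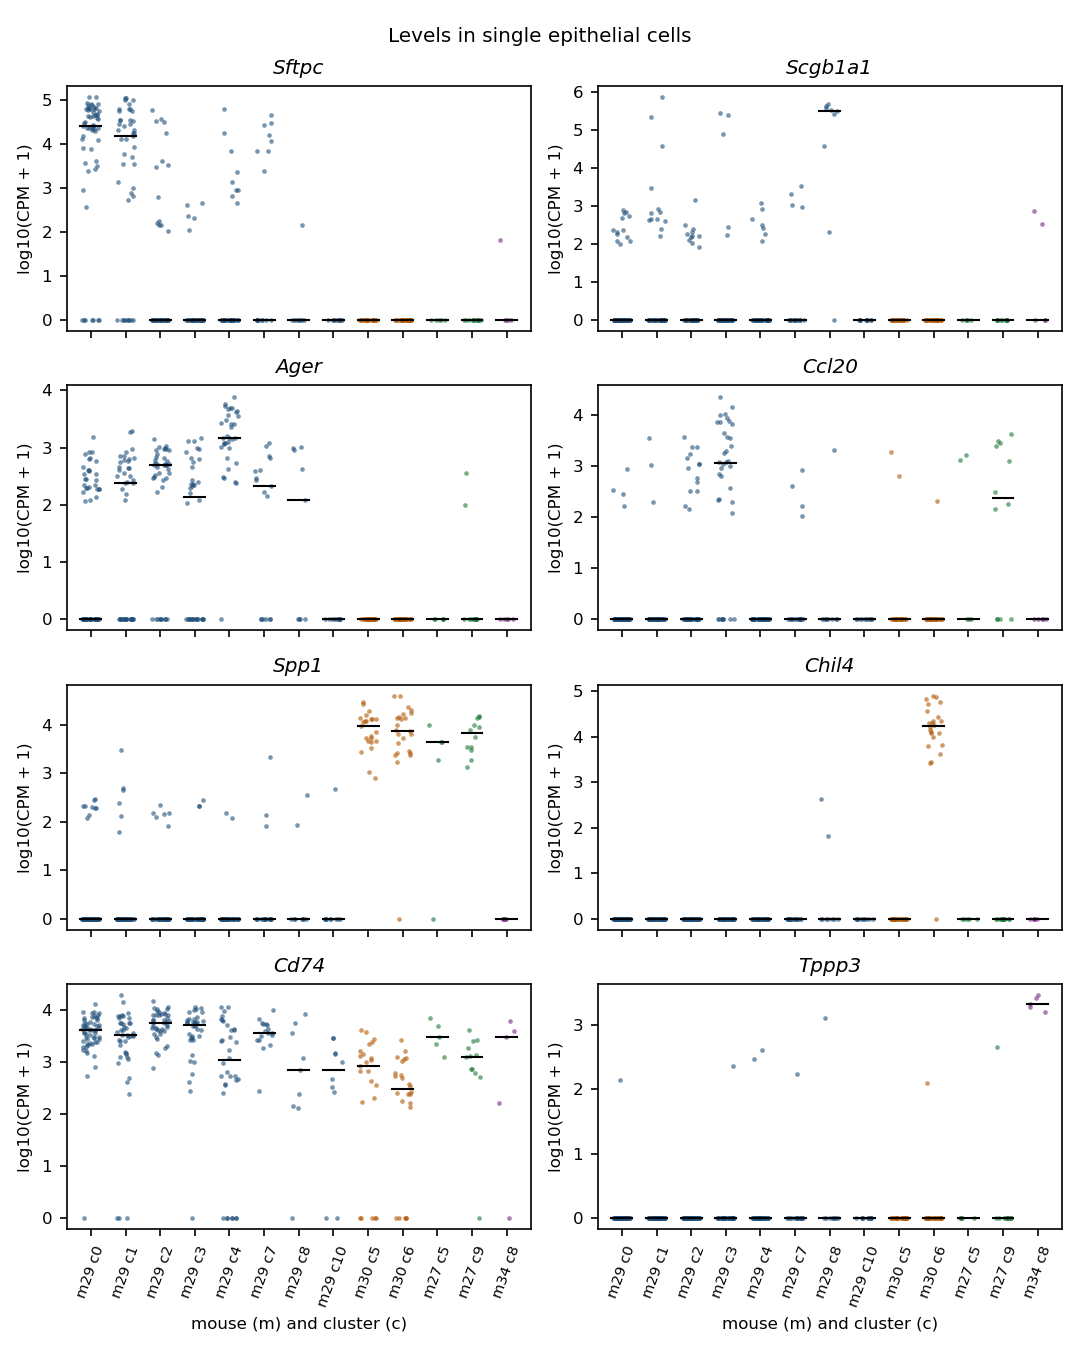
Levels of 8 genes in single epithelial cells, 1 point per cell, as log10 of CPM plus 1, for each mouse and cluster with at least 5 cells; bars are medians. Scgb1a1 reaches 11757 UMIs in 1 cell of mouse 29 and 0 to 20 UMIs in all but 13 of its cells, and Chil4 is held by 23 of 24 cells of 1 cluster of mouse 30 and by 0 of 23 of the other.

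In the liver nodule of mouse 30 the epithelial cells carried bile duct genes, Spp1 (ENSMUSG00000029304) foremost. Spp1, osteopontin, stood at 13215 CPM over the 48 cells and was held by 47 of them, with a median of 48.5 and a highest count of 402 UMIs. In the Ptprc cells of the nodule it stood at 138 CPM. The duct transcription factor Sox9 stood at 561 CPM and the chaperone clusterin (Clu) at 5477 CPM. The lung lineage factor Nkx2-1 was at 0, as were Sftpb, Sftpc and Ager, while the collectin Sftpd, which ducts also make, stood at 315 CPM in 28 of the 48 cells.

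Those cells fell into a pair of cholangiocyte-like clusters of 23 (cluster 5) and 24 cells (cluster 6) with equal Spp1 and different secreted products. Spp1 stood at 13151 CPM in the 23 and 13137 CPM in the 24, and Sox9 at 552 and 572 CPM. The cluster of 24 carried the chitinase-like protein Chil4 (ENSMUSG00000063779) at 31130 CPM in 23 cells, with a median of 92.5 and a highest count of 896 UMIs, and it was at 0 in all of the 23. With Chil4 went Wfdc18 (3821 against 9.05 CPM), the surface protein Ly6d (2031 against 0), the scavenger glycoprotein Dmbt1 (1641 against 0), Spink4 (955 against 0), and the EGF receptor ligand Hbegf (1904 against 589). Pigr stood at 827 against 380 CPM, so the Chil4 cells also had more of the immunoglobulin transporter. The duct keratin Krt19 stood at 1278 against 217 CPM, but it was a gene of the rule and nothing is read from it. The cluster of 23 had instead Ankrd1, a target gene of YAP signalling, at 1513 against 60.5 CPM, the fibrocystin gene Pkhd1 at 1132 against 101 CPM, the desmosomal cadherin Dsg2 at 2165 against 558 CPM and albumin (Alb) at 471 against 0 CPM. Antigen presentation genes parted the same way: Cd74 stood at 1331 against 632 CPM, H2-D1 at 1513 against 383 CPM and B2m at 4293 against 1870 CPM, all higher in the cluster of 23.

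The 19 epithelial cells of mouse 27, the other liver nodule, carried plasma protein and duct genes side by side. Of its cells 12 formed the hepatocyte-like cluster (cluster 9), with the fetuin gene Ahsg at 5661 CPM, the protease inhibitor Serpina1b at 6091 CPM, fibrinogen beta (Fgb) at 3092 CPM, transthyretin (Ttr) at 3153 CPM and Apoa1 at 2246 CPM. Alb stood at 800 CPM in them and Cyp3a11, a drug-metabolising enzyme of mature hepatocytes, at 0. The same 12 cells had Spp1 at 7137 CPM, held by all 12, Sox9 at 369 CPM and Clu at 11737 CPM, while Krt19 was at 0. The 5 cells of this mouse that joined a cholangiocyte-like cluster had Epcam at 7172 CPM, Krt19 at 633 CPM, Spp1 at 5344 CPM and Clu at 18634 CPM. Ccl20 was present in both sets, at 1246 CPM in 8 of the 12 cells and 1055 CPM in 2 of the 5.

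The remaining clusters were small and sat at the edge of the rule. A cluster of 18 cells (cluster 7), 17 of them from mouse 29, stayed unnamed because it held myeloid and mesenchymal markers beside AT2 markers (Sftpc 9040 CPM in 8 of 17 cells), had a median of 6885.5 UMIs and also held Cxcl1, a neutrophil chemokine, at 1257 CPM. The mesothelial-like cluster of 11 cells (cluster 10), 10 of them from mouse 29, entered the rule through keratins: Krt8 stood at 396 CPM and Krt19 at 277 CPM in the 10 cells, Epcam at 0, the proteoglycan decorin (Dcn) at 5925 CPM and the mesothelial factor Wt1 at 337 CPM. The single cell of mouse 32 fell in that cluster, with 2 Krt8, 1 Krt19, 294 Dcn, 12 Upk3b and 5 Wt1 UMIs among 16444. The single cell of mouse 33 held 8 Epcam, 21 Krt18 and 94 Cd74 UMIs among 6746, and none of the thymic epithelial genes Aire, Psmb11 and Foxn1. Those 3 genes were at 0 in the 7 cells of mouse 34 as well, where the thymic medullary list summed to 46 UMIs, 44 of them of the claudin Cldn3, and the thymic cortical list to 25 UMIs, 18 of them of the protease Ctsl. Neither Cldn3 nor Ctsl is particular to thymus, and 1 and 7 cells are too few to say whether thymic epithelium was present.

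Of the MHC class II genes, which serve to present peptides to CD4+ T cells, Cd74 was held by most epithelial cells. The 7 genes of that list summed to 3113, 6067, 1584 and 7460 CPM in mice 27, 29, 30 and 34, against 12888, 1563, 626 and 19406 CPM in the Ptprc cells of the same nodules. The epithelial cells thus stood above the Ptprc cells in mice 29 and 30 and below them in mice 27 and 34. The Ptprc cells differed in make-up: 49 of 9449 in mouse 30 held the B cell gene Cd79a, against 4520 of 6690 in mouse 27. Those 49 cells had Cd74 at 3318 CPM, above the epithelial cells of mouse 30 (942 CPM). In mouse 29 the Ptprc cells with Cd79a had Cd74 at 2041 CPM, below its epithelial cells (4101 CPM). Cd74 (ENSMUSG00000024610), the invariant chain, stood at 2002, 4101, 942 and 4099 CPM and was held by 17 of 19, 232 of 247, 38 of 48 and 6 of 7 cells. In Ptprc cells Cd74 was held by 87.3%, 35.1%, 19.7% and 93.5%, at median UMIs of 4899.5, 2040, 1430 and 5911. H2-Aa was held by fewer epithelial cells in mice 27, 29 and 30: 63.2%, 79.4%, 39.6% and 85.7% in mice 27, 29, 30 and 34. Of the AT1-like cells 44.1% held it. In mouse 29 Cd74 was highest in the third AT2-like cluster (5600 CPM) and the cluster with high Ccl20 (4982 CPM), at 2682 CPM in AT1-like cells and at 773 CPM in mesothelial-like cells.

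Free RNA from B cells was gauged by the ratio of Cd74 to Cd79a, a B cell receptor chain. The epithelial cells of mouse 29 held 720 Cd74 UMIs per Cd79a UMI, against 4.01 in its Ptprc cells and 3.02 in Ptprc cells that held Cd79a. In mouse 27 the ratio was 164 against 7.15 in Ptprc cells and in mouse 34 it was 90.7 against 11.6, and in mouse 30 no epithelial cell held Cd79a beside 245 Cd74 UMIs, where the ratio was 60.4 in Ptprc cells. The ratios in epithelial cells rest on 7, 1 and 3 Cd79a UMIs in mice 29, 27 and 34, the 3 in 1 cell, so their size is uncertain. This ratio does not gauge Cd74 RNA from myeloid cells, which lack Cd79a, and the part of free RNA in these levels was not tested.

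The MHC class I list summed to 6507, 9143, 5212 and 10127 CPM in mice 27, 29, 30 and 34, and the interferon response list to 1135, 933, 1172 and 573 CPM. In the Ptprc cells the interferon list stood at 523, 778, 4916 and 727 CPM, so that in mouse 30 the epithelial cells stood far below the leukocytes around them. The chemokine Cxcl10, which interferon induces, stood at 115 CPM in the epithelial cells and 2874 CPM in the Ptprc cells of mouse 30.

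Chemokine sums were close in mice 27, 29 and 34 and lower in mouse 30. The list of 18 epithelial chemokines and cytokines summed to 2588, 2337, 469 and 2743 CPM in mice 27, 29, 30 and 34. Ccl20 (ENSMUSG00000026166) stood at 1343, 729, 69.2 and 799 CPM, held by 11, 54, 3 and 1 cells, against 0.334 to 9.58 CPM in the Ptprc cells of these nodules. Cxcl1 stood at 574, 222, 34.6 and 0 CPM and Il33, an alarmin of barrier cells, at 0, 65.9, 11.5 and 0 CPM. The checkpoint ligand Cd274 stood at 0, 12.2, 19.2 and 15.1 CPM, below its 36.8 to 258 CPM in Ptprc cells, and the B cell survival factor Tnfsf13b at 0, 6.50, 0 and 0 CPM.

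Genes of the transitional state that alveolar and duct cells enter after damage (Krt8, Cldn4, Clu, Hbegf, Cdkn1a and others) summed to 17043, 2621, 9967 and 4205 CPM in mice 27, 29, 30 and 34. Clu made up most of that sum in both liver nodules, at 12917 and 5477 CPM. The cell cycle inhibitor Cdkn1a stood at 769, 305, 119 and 618 CPM and Cldn4 at 159, 37.4, 619 and 166 CPM, so the members of this list did not rank the mice in 1 order. Immediate-early and heat shock genes, which tissue dissociation also induces, summed to 56123, 19528, 36031 and 3451 CPM in the same mice against 1635, 11165, 11600 and 5171 CPM in Ptprc cells, which puts mice 27 and 30 highest on both lists; the part of dissociation in the first was not tested. Cycling genes summed to 269, 33.3, 23.1 and 196 CPM, against 1325, 307, 364 and 1296 CPM in Ptprc cells. The sum of mouse 27 came from 22 UMIs, of which clusters 5 and 9 (5 and 12 of its 19 cells) held 3 and 2, and that of mouse 34 from 13 UMIs, of which cluster 8 held 1, and as means over cells these sums were 515 and 370 CPM.

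Genes that hold epithelium together and set its identity were present in all 4 mice. Claudins and other tight junction genes summed to 1367, 1999, 2295 and 1839 CPM in mice 27, 29, 30 and 34, and adherens junction and polarity genes to 4517, 2030, 4147 and 2698 CPM. Epithelial transcription factors summed to 818, 1084, 1710 and 693 CPM and growth factor ligands and receptors to 1074, 1158, 2118 and 1356 CPM, both highest in mouse 30. Mucosal defence genes spanned a wider range, 733, 36602, 3890 and 19411 CPM. In mouse 29 that sum was mostly Scgb1a1, which rests on 13 cells, and the list stood at 7834, 76668 and 4198 CPM in its 3 AT2-like clusters, the second of which holds 3 of those cells. Lymphocyte ligands summed to 269, 464, 127 and 105 CPM, each below the 372, 565, 620 and 501 CPM of the Ptprc cells.

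**Figure D4:**
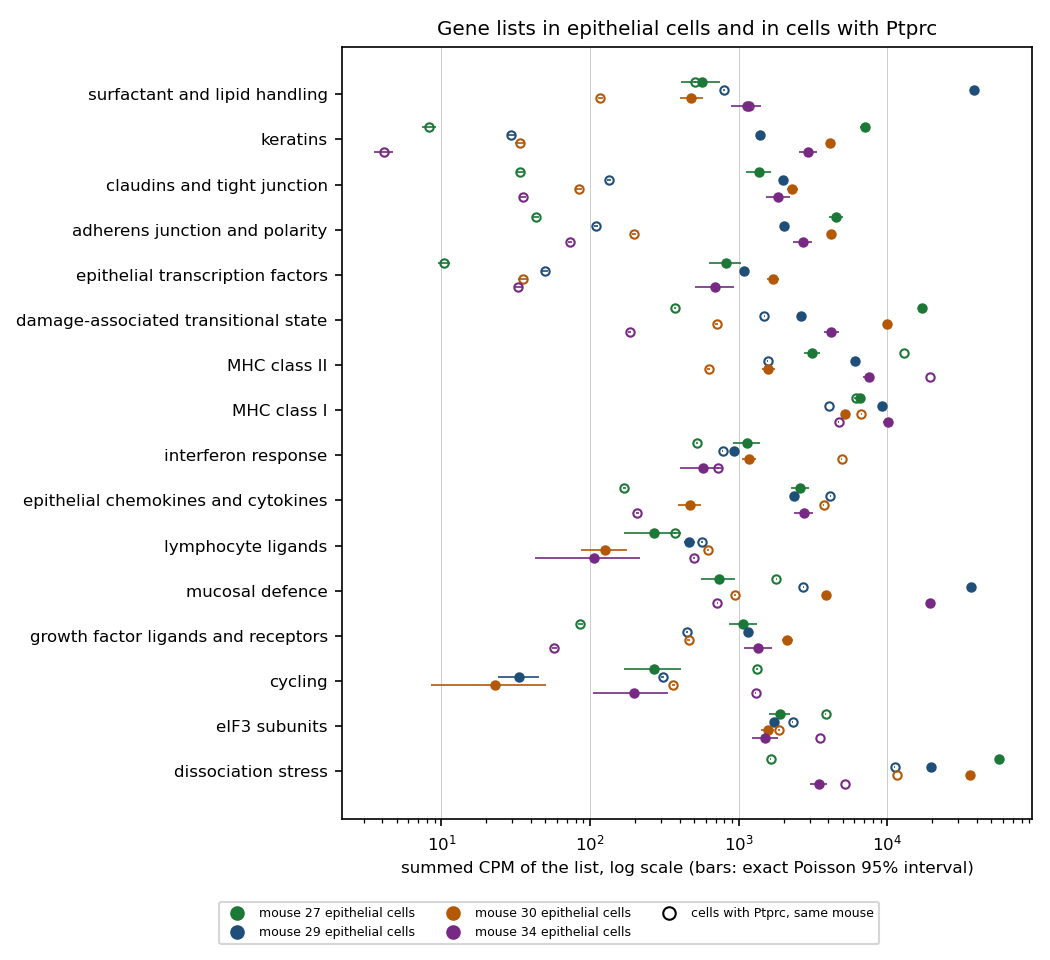
Summed levels of gene lists in the epithelial cells of mice 27, 29, 30 and 34 and in the Ptprc cells of the same nodules, in CPM on a log axis with exact Poisson 95% intervals; filled points are epithelial cells. MHC class II stands at 6067 CPM in the epithelial cells of mouse 29 against 1563 CPM in its Ptprc cells, and cycling genes at 33.3 against 307 CPM.

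Eif3e (ENSMUSG00000022336), the floxed gene, was present in the epithelial cells. It made up 110 of 2112 UMIs of eIF3 subunit genes in mouse 29 (5.21%, exact 95% interval 4.30 to 6.24) and 9 of 408 in mouse 30 (2.21%, with an interval of 1.01 to 4.15). The fewer cells of mouse 27 gave 2 of 155 (1.29%, 0.157 to 4.58), and those of mouse 34 gave 3 of 100 (3.0%, 0.623 to 8.52). In Ptprc cells the share was 6.49%, 6.36%, 5.67% and 5.14% in mice 29, 30, 27 and 34. The epithelial share lay below the Ptprc share in all 4 mice, with intervals that did not reach it in mice 27, 29 and 30. Counts per gene cannot tell transcripts with the floxed part from those without it, and different cell types were compared, so these values do not check the deletion. In mice 27 and 34 the epithelium may be the recipient's, and whether it carried the floxed allele is not known. The study reported normal eIF3e protein in the B and CD4+ T cells of its tumors.

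Mouse 29 (lung, 247 cells) and mouse 30 (liver, 48 cells) held enough cells for a comparison gene by gene of summed UMIs. With 1 mouse on each side there is no replicate and no test; a gene was counted as higher or lower when its level plus 10 CPM differed by at least 2-fold between these 2 libraries. Of 9985 genes with at least 10 summed UMIs, 14.5% were higher and 8.35% lower in mouse 29, with a median log2 difference of 0.09 over all genes. Against that background 11 of 11 AT2 genes were higher (median log2 difference 5.11, and 4.86 with genes at 0 in 1 mouse set to their bound) and 8 of 10 AT1 genes were higher, the rule gene Ager included, while 8 of 10 cholangiocyte genes were lower, the rule gene Krt19 included (median -3.27, and -3.31 with bounds). Club cell genes were higher for 6 of 8 and lower for 1, surfactant and lipid genes higher for 11 of 12, and the 3 hepatocyte genes measured were lower. The bounds, with 3 UMIs in place of 0, were at least 1286-fold for Sftpc, 193-fold for Sftpb and 29.4-fold for Nkx2-1, all higher in mouse 29, and at least 280-fold for Tm4sf4, a duct membrane protein, higher in mouse 30. Spp1 was at 0.00271 times its level in mouse 30 (exact 95% interval 0.00196 to 0.00364).

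**Figure D5:**
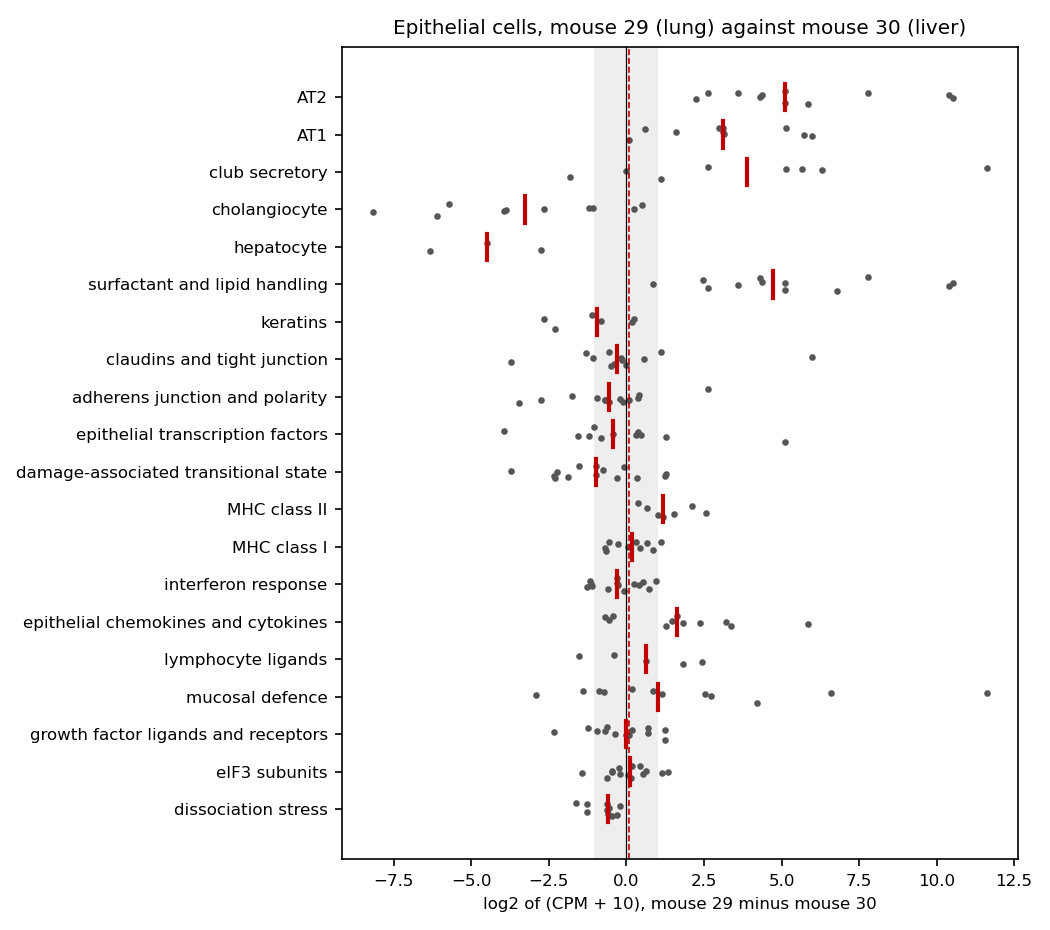
Log2 difference of each gene of the lists between the epithelial cells of mouse 29 (lung) and mouse 30 (liver), on the scale of CPM plus 10, 1 point per gene, by list; red ticks are list medians, the dashed line the median of all genes and the grey band differences under 2-fold. AT2 genes lie above 0 with a median of 5.11 and cholangiocyte genes have a median of -3.27; there is 1 mouse on each side.

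The lists outside the organ programmes are read against the same shares, 14.5% higher and 8.35% lower. Of 7 MHC class II genes 5 were higher in mouse 29, Cd74 by a ratio of 4.35 (3.83 to 4.97) and H2-Aa by 6.31 (4.53 to 9.06), whereas of 10 MHC class I genes 1 was, H2-D1 by 2.16 (1.89 to 2.49). Of 14 interferon response genes 0 were higher and 4 lower, among them Ifit1 at 0.419 (0.297 to 0.597) of the level in mouse 30. Of 11 chemokine and cytokine genes measured 8 were higher, Ccl20 by 10.5 (6.62 to 17.9), Cxcl1 by 6.42 (3.33 to 14.2) and Cxcl10 by 3.31 (2.29 to 4.96). Of the Ccl20 UMIs 1 cell held 16 of 18 in mouse 30, and cluster 3 held 746 of 896 in mouse 29. Cluster 7, the unnamed cluster with myeloid and mesenchymal markers, held 148 Cxcl1 UMIs, a large part of those in mouse 29. The adhesion molecule Icam1, which binds lymphocyte integrins, was higher by 6.10 (3.71 to 10.8). The 3 keratins that lay lower in mouse 29 of 6 measured, Krt8, Krt18 and Krt19, were genes of the rule, so nothing is read from them. Of 14 transitional genes 6 lay lower, the rule genes Krt8 and Cldn4 included, among them Clu at 0.209 (0.194 to 0.225) and Hbegf at 0.193 (0.166 to 0.226), while Cdkn1a was higher by 2.56 (1.77 to 3.82). Of 13 adherens junction genes 1 was higher and 3 lower, the desmosome genes Dsp (0.254), Dsg2 (0.0828) and Dsc2 (0.0235). Tight junction genes split 2 higher and 3 lower of 12, growth factor genes 2 and 2 of 13 and eIF3 subunits 2 and 1 of 14, and nothing is read from these counts or from those of MHC class I and adherens junction genes. Of 11 epithelial transcription factors 2 were higher, Nkx2-1 and Cebpa (2.96, 1.38 to 7.56), and 4 lower, among them Sox9 (0.0478, 0.0317 to 0.0702) and Elf3 (0.290, 0.184 to 0.462). Of 10 dissociation stress genes 3 were lower in mouse 29, with Atf3 at 0.322 (0.308 to 0.336), and organ, mouse, age and receptor library differed together between these cells and cannot be told apart.

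Within liver, the 48 cells of mouse 30 were set against the 19 of mouse 27 in the same way, with mouse 30 shared by both comparisons. The nodule of mouse 30 was a primary tumor and that of mouse 27 a secondary tumor in a Rag2-/- recipient. Host, tumor stage, age, receptor library and mouse thus differed together and cannot be told apart. Of 5113 genes 19.0% were higher and 14.1% lower in mouse 30 (median log2 difference -0.03). Cholangiocyte genes were higher for 6 of 10, the rule gene Krt19 included, and hepatocyte genes lower for 5 of 6 measured, with the claudin Cldn7 higher by 3.26 (1.88 to 6.11) and Fgb at 0.00154 of its level in mouse 27. Of 6 mucosal defence genes 5 were higher, Lcn2 by 12.1 (7.0 to 22.9) and Pigr by 52.3 with a wide interval (9.25 to 2077). Chemokines lay lower for 3 of 5: Ccl20 at 0.0515 (0.0294 to 0.0853, with the single cell named above holding 16 of 18 UMIs), Cxcl1 at 0.0603 (0.0260 to 0.124) and Cxcl10 at 0.262 (0.156 to 0.438). Of 13 transitional genes measured 6 were higher in mouse 30, among them the rule gene Cldn4 and Hbegf (2.67, 1.93 to 3.79). The 2 lower were Cdkn1a (0.155, 0.0974 to 0.242) and Clu (0.424, 0.391 to 0.460), and the list's median log2 difference was 0.264. The heat shock genes Hspa1a and Hspa1b were higher by 27.6 (10.7 to 102) and 21.6 (8.33 to 79.7) and the immediate-early gene Fos lay at 0.325 (0.302 to 0.350), and the part of handling in these differences was not tested. Chil4 differed by at least 486-fold, since none of the 19 cells of mouse 27 held it.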

How the data were processed

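Nodules were dissociated, erythrocytes lysed and dead cells removed before droplet capture (SeekGene). The deposited files are raw counts of UMIs for 32285 genes in called cells, 1 matrix per mouse; the aligner and cell caller for them are not given in the sources used here, and the labels name a 5′ kit where the study's methods name a 3′ kit. Counts were summed over cells of a mouse or cluster and scaled to CPM. The epithelial cells and gene lists were chosen with earlier results of these data known, and the naming rule for clusters was set after the data were seen: at least 3 markers of 1 class in at least 10% of cells and at least 1.5 times the median cluster, with no second class equal or leading. Clustering used scanpy 1.11.5 and leidenalg 0.10.2 (2000 variable genes, 30 components, 15 neighbors, resolution 1). Shares were compared by exact permutation over mice (scipy 1.17.1). Ratios carry exact binomial, and levels exact Poisson, 95% intervals. Ptprc cells are cells with a UMI of Ptprc. The genes named are the rule genes, the highest members of each list and the 10 leading genes of each cluster, with Tnfaip2 and Gp2 among those added by hand. The step that calls 2-fold differences was checked on simulated counts. A planned count test between lung-containing and other nodules was not run, since mouse 29 alone in the lung arm reached 20 epithelial cells.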

Additional observations from a re-analysis of the deposited data

Results flagged for a closer look

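Among the 5 BCR-profiled mice, the share of epithelial cells in mouse 29 (1.75%) stood far from the others: its gap to the next mouse was 0.885 of the group's whole range, above the critical value of 0.710 for 5 samples. Chance flags about 1 in 20 groups, and the lung was the site of that nodule alone among the 5, apart from mouse 34 with lung and thymus together.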

How the results depend on the processing

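The difference in epithelial share between lung-containing and other nodules ranged from 0.544 to 1.64 points (exact permutation p = 0.286 to 0.400) without the mitochondrial limit, with at least 3 rule genes, without the Ptprc exclusion, with cells of at least 1000 UMIs, without cells holding lymphocyte UMIs, without the doubtful cells and without mice 27 and 34; the last 2 were added after seeing the data. Leaving out each mouse gave -0.0336 to 1.62 (exact permutation p = 0.267 to 1), negative without mouse 29. The BCR-TCR difference ranged from 0.112 to 0.356 (exact permutation p = 0.857 to 1) under the same settings and from -0.154 to 0.406 (p = 0.533 to 1) with each mouse left out; it was -0.154 without mouse 29 and -0.0441 without mouse 32. The AT2-like share of mouse 29 was 42.1% at clustering resolutions of 0.5 and 2 and 46.5% with at least 3 rule genes; the cholangiocyte-like share of mouse 30 was 47.9% and the hepatocyte-like share of mouse 27 was 0% at 0.5, and the cause was not tested. As means over cells, 22 of 64 list levels moved outside their counting interval, and 3 of those by over 1.5 times: cycling in mice 27 (269 to 515 CPM) and 34 (196 to 370 CPM) and mucosal defence in mouse 29 (36602 to 20101 CPM). No paired analysis was possible because the groups compared hold different mice. The count test between nodules and its alternatives were not run, since 1 mouse in the lung arm had enough cells. Counting error limits every mouse but 29 and 30, with 19 and 7 cells in mice 27 and 34 and at most 1 in mice 31, 32 and 33.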
